A study of Mus musculus with 12 samples.

Results

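Collagen-modifying, -folding, and -processing proteins were represented by 10 genes of the 52636 in the count table, and all 10 passed the filter on low counts that left 22320 genes to be tested. They were chosen by what their proteins do, but with earlier results of these data known, so shares of all genes given beside them are descriptive. The list held the lysyl hydroxylases *Plod1*, *Plod2*, and *Plod3*, the prolyl 4-hydroxylase subunits *P4ha1* and *P4ha2*, and the prolyl 3-hydroxylase *P3h1*. It also held the collagen chaperone *Serpinh1*, the procollagen-trimming proteinase *Bmp1* with its enhancer *Pcolce*, and the cross-linking enzyme *Loxl2*. RNA was sequenced from sorted GFP+ SMCs of male C57BL/6J mice at 12 weeks of age. The 3 GFPiSMC control mice and the 3 Tgfbr1/2iSMCKO mice each gave libraries of the ascending aorta with the arch and of the descending thoracic aorta, so that 12 libraries formed 4 groups of 3. All mice carried *Myh11-CreERT2*, a Cre that tamoxifen turns on and the *Myh11* promoter limits to the SMC lineage, together with the *mT/mG* reporter that marks Cre-exposed cells with GFP. Tgfbr1/2iSMCKO mice carried in addition floxed *Tgfbr1* and *Tgfbr2*, the type I and type II TGF-β receptors, and receptors outside the *Myh11* lineage were not targeted. The control line had no floxed alleles, so the mouse line and the deletion cannot be told apart. Both genotypes were given tamoxifen for 5 days, and the labels name 2 doses (1 and 2 mg/d) and 2 starting ages (4 and 11 weeks) without assigning them to libraries. Per the methods of the study, the course begun at 11 weeks used 2 mg/d. The study describes the profiling of SMCs from mice aged 12 weeks as a week after the disruption, which is the timing of that course. GFPiSMC mice, without floxed alleles, had no such disruption.

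Collagen chains are modified in the endoplasmic reticulum before they fold. Prolyl 4-hydroxylases make the 4-hydroxyproline that keeps the triple helix stable at body temperature, lysyl hydroxylases prepare lysines for glycosylation and cross-linking, and the chaperone HSP47, the product of *Serpinh1*, binds the newly folded helix. Outside the cell, propeptides are trimmed so that fibrils can form, and lysyl oxidases then cross-link the fibrils, which gives the aortic media its tensile strength.

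Libraries held between 20467027 and 31392396 counts from 9208 to 20000 sorted cells. All 8 SMC markers were abundant in every library. *Acta2* was at 20543 and 21323 CPM (counts relative to a TMM-scaled library total) in Tgfbr1/2iSMCKO animal 3 and at 27245 to 31930 CPM in the other libraries. *Smtn*, *Lmod1*, and *Myocd* were higher in both libraries of that animal than in any other, and the rest of the SMC markers overlapped. Counts over the whole gene for *Tgfbr1* (196 to 292 CPM in GFPiSMC and 198 to 295 in Tgfbr1/2iSMCKO) and *Tgfbr2* (88.9 to 128 and 68.2 to 102) overlapped between the genotypes and, since they include exons that are not floxed, did not check the deletion. The libraries of Tgfbr1/2iSMCKO animal 3 and the descending library of GFPiSMC animal 2 stood apart, with the 3 highest scores (44.8, 49.0, and 28.0, against −42.0 to 12.7 in the others) on the first principal component of 9210 well-expressed genes, which held 34.2% of their variance. These 3 libraries were among the 4 with the fewest sorted cells. The summed level of 9 fibroblast markers was 1378 and 1045 CPM in the libraries of animal 3 and 192 to 669 CPM in the other 10. *Gsn*, which SMCs also express, carried most of that sum, and without it the 8 remaining markers summed to 31.9 and 86.1 CPM in animal 3, within the 20.3 to 245 CPM of the others. *Dpt*, *Pi16*, and *Ly6a* of that list were at 0 in 1 to 3 libraries, and the tenth marker, *Clec3b*, was too low to test. Endothelial markers summed to 56.6 to 107 CPM, nearly all of it *Pecam1*. Macrophage markers summed to 25.4 and 26.9 CPM in the libraries of Tgfbr1/2iSMCKO animal 3 and to 7.64 to 19.1 CPM in the other 10. Of all the markers listed, *Cdh5* of endothelial cells was the one that differed between genotypes by edgeR (log2 fold change 2.97, adjusted *p* = 0.025), at no more than 2.71 CPM, and DESeq2 also called *Vwf* (1.204, adjusted *p* = 0.021), at no more than 12.7 CPM. The part that these cells had in any result was not tested.

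Over both segments, Tgfbr1/2iSMCKO SMCs had less mRNA for *Plod2* and *P4ha1*. These 2 of the 10 genes were lower in Tgfbr1/2iSMCKO with an adjusted *p* under 0.05 and a level more than 2-fold lower, a call made for 1.64% of all genes tested, and none of the 10 was higher, against 1.03% of all genes. For both of them all 6 Tgfbr1/2iSMCKO libraries lay below all 6 GFPiSMC libraries, which was so for 2.89% of all genes, whereas the other 8 overlapped between genotypes. The log2 fold change was negative for 9 of the 10 (8 with library size as the only scaling), with a median of −0.41, and for 46.3% of all genes, with a median of 0.04. The calls above come from a fit that takes the libraries of an animal as independent. With counts summed per animal, *Plod2* passed the edgeR test (adjusted *p* = 0.0014) and *P4ha1* did not (adjusted *p* = 0.055). In sorted cells in bulk, fewer cells expressing a gene and less RNA per cell cannot be told apart.

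**Figure D1:**
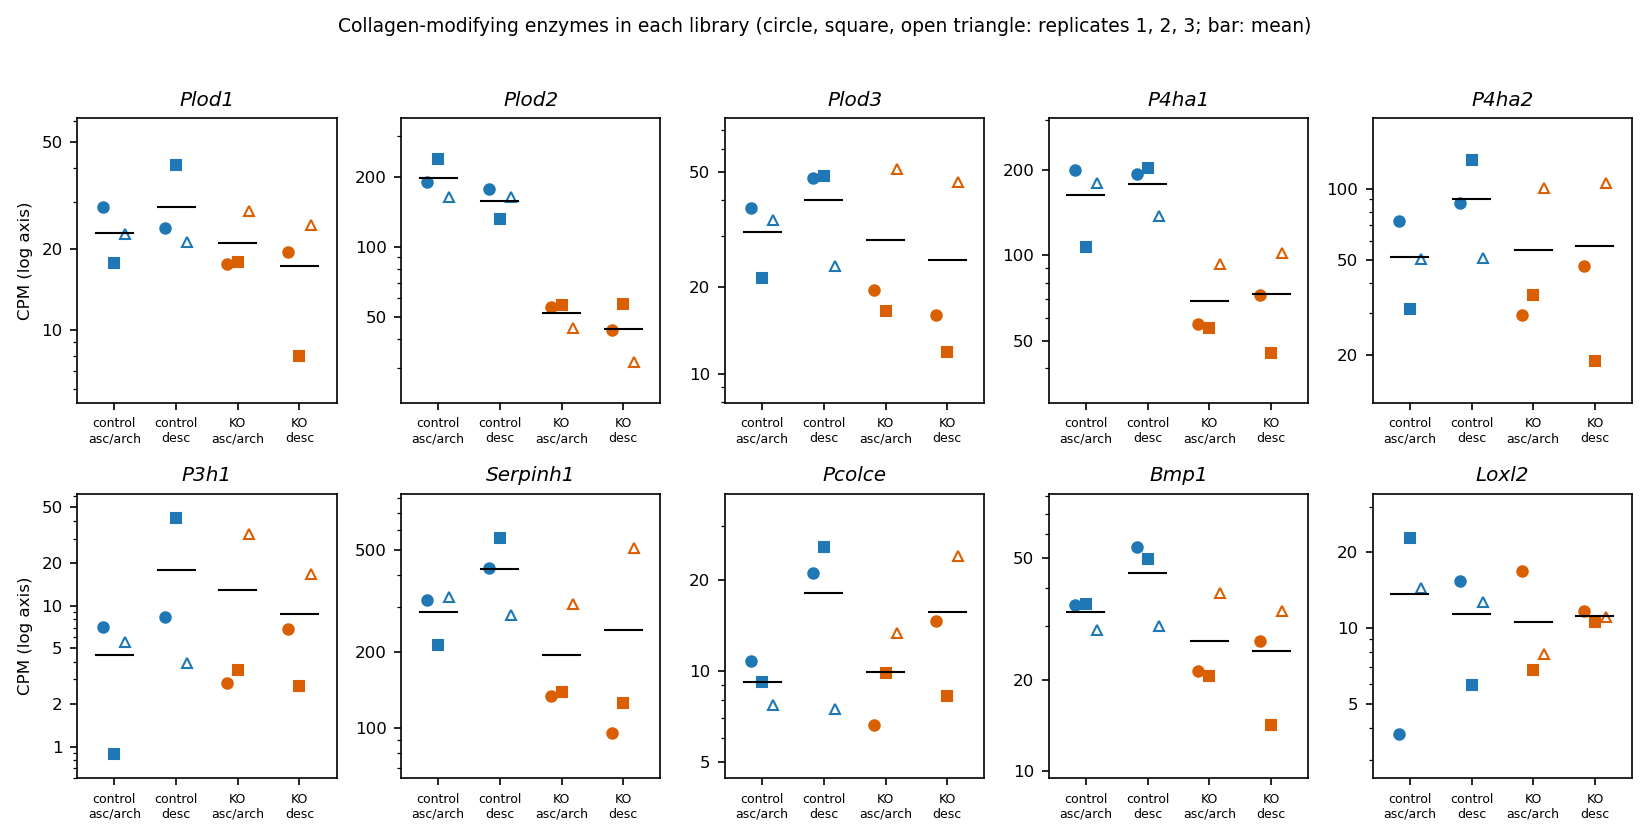
Level of the 10 genes in each of the 12 libraries, in CPM on log axes, with GFPiSMC in blue (control) and Tgfbr1/2iSMCKO in orange (KO); symbols mark the animal and bars the group means of 3. The genotypes separate for *Plod2* (132 to 239 against 31.9 to 56.6 CPM) and *P4ha1* (107 to 203 against 45.3 to 102 CPM), and the open orange triangles of Tgfbr1/2iSMCKO animal 3 lie above the other Tgfbr1/2iSMCKO animals in both segments for *P4ha1* and 7 of the other genes.

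*Plod2* encodes lysyl hydroxylase 2, which hydroxylates lysines in the collagen telopeptides and so sets the type of cross-link that lysyl oxidases can form. It lies on the plus strand at chr9:92542223-92608428 (GRCm38, GENCODE M21). In GFPiSMC, replicates 1, 2, and 3 gave 189.9, 239, and 164 CPM in the ascending/arch and 177, 132, and 163 CPM in the descending segment. In Tgfbr1/2iSMCKO the corresponding values were 55.1, 56.4, and 44.7 CPM and 43.8, 56.6, and 31.9 CPM. The highest Tgfbr1/2iSMCKO library therefore lay below the lowest GFPiSMC library, and the library of Tgfbr1/2iSMCKO animal 3 was the lowest in each segment. The log2 fold change was −1.88 (SE 0.16, adjusted *p* = 7.3e-06), a 3.68-fold lower level with an approximate 95% interval of 2.88-fold to 4.70-fold. *Gm38391*, a transcript annotated on the opposite strand of the locus, held 51 to 237 counts, against 946 to 6957 for *Plod2*. With the counts of both segments summed per animal, so that 3 animals were compared with 3, the change was −1.87 (adjusted *p* = 0.0014), and a test against a 2-fold change gave an adjusted *p* of 0.0019.

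The other lysyl hydroxylases did not pass the test. *Plod1*, whose enzyme hydroxylates helical lysines, ranged from 17.6 to 40.9 CPM in GFPiSMC and from 7.999 to 27.6 CPM in Tgfbr1/2iSMCKO (log2 fold change −0.43, SE 0.28, adjusted *p* = 0.55, interval −1.07 to 0.21). *Plod3*, whose enzyme also adds sugars to hydroxylysine, stood at 37.5, 21.5, and 34.0 CPM and 47.8, 48.6, and 23.7 CPM in the GFPiSMC segments, and at 19.6, 16.5, and 51.3 CPM and 16.0, 11.9, and 46.3 CPM in Tgfbr1/2iSMCKO. Its 4 libraries from Tgfbr1/2iSMCKO animals 1 and 2 were below all GFPiSMC libraries, while animal 3 reached the highest GFPiSMC values (log2 fold change −0.39, SE 0.38, adjusted *p* = 0.73, interval −1.25 to 0.46). Reads of *Plod3* may be shared with *Znhit1*, a gene of 965 to 1783 counts that overlaps it on the opposite strand, because the counting is not stated to use strand. Per kilobase of exon, *Plod2* made up 73.8%, 85.8%, and 73.6% of the summed level of the 3 *Plod* genes in ascending/arch replicates 1 to 3 of GFPiSMC and 69.9%, 59.4%, and 78.3% in the descending segment. In Tgfbr1/2iSMCKO the shares were 59.6%, 62.4%, and 34.9% and 55.9%, 73.3%, and 29.9%. The medians were 73.7% and 57.8%, but the ranges overlapped, and the smallest shares came from animal 3.

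*P4ha1* and *P4ha2* encode alternative catalytic subunits that pair with protein disulfide isomerase in the prolyl 4-hydroxylase tetramer. *P4ha1* lies on the plus strand at chr10:59323296-59373304. *P4ha1* levels in GFPiSMC were 201, 107, and 179.8 CPM in the ascending/arch and 194, 203, and 137 CPM in the descending segment. Tgfbr1/2iSMCKO libraries held 57.4, 55.6, and 93.3 CPM and 72.3, 45.3, and 102 CPM. The genotypes came close only at the top of one and the bottom of the other, where animal 3 of Tgfbr1/2iSMCKO reached 102 CPM and ascending/arch replicate 2 of GFPiSMC stood at 107 CPM. The log2 fold change was −1.26 (SE 0.22, adjusted *p* = 0.0036), a 2.40-fold lower level with an interval of 1.69-fold to 3.40-fold. Summed per animal the change was −1.25 and its adjusted *p* of 0.055 missed the threshold, in a fit that called 1.05% of 24275 genes lower, and the test against a 2-fold change gave an adjusted *p* of 1.

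*P4ha2* did not pass the test. Its level was 73.3, 31.1, and 50.6 CPM and 87.3, 132, and 51.3 CPM in the GFPiSMC segments and 29.6, 35.7, and 101 CPM and 47.4, 18.9, and 106 CPM in Tgfbr1/2iSMCKO. Both genotypes spanned low and high values, with the high ones in the descending libraries of GFPiSMC animals 1 and 2 and in Tgfbr1/2iSMCKO animal 3. The log2 fold change was −0.28 (SE 0.43, adjusted *p* = 0.86, interval −1.24 to 0.69), and the difference between the changes of *P4ha1* and *P4ha2* was not tested. Per kilobase, *P4ha1* made up 70.1% to 84.3% (median 80.4%) of the summed level of the pair in GFPiSMC and 58.4% to 78.4% (median 70.1%) in Tgfbr1/2iSMCKO, which overlapped. The partner subunit *P4hb* was at 332 to 763 CPM and 202 to 559 CPM (on the log2 scale a change of −0.40, adjusted *p* = 0.54).

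The promoters of the pair are shown because *P4ha1* and *P4ha2* are known targets of hypoxia-inducible factors and only the first passed the test. Promoter windows of 300 bases, from 250 bases before to 50 after the start, come from RefSeq (GRCm38.p6, the build of the counts), where 7 of the 10 genes had an entry and *Plod2*, *Bmp1*, and *Loxl2* had none. They are written 5′ to 3′ on the gene's strand, here the plus strand, at chr10:59323046-59323345 for *P4ha1* and chr11:54100674-54100973 for *P4ha2*, and capitals mark ACGTG or GCGTG, the core letters of the hypoxia response element, on either strand (CACGT and CACGC when read on the other strand), with no overlap between matches. The RefSeq start of *P4ha2* lies inside the longer gene model of GENCODE.
P4ha1: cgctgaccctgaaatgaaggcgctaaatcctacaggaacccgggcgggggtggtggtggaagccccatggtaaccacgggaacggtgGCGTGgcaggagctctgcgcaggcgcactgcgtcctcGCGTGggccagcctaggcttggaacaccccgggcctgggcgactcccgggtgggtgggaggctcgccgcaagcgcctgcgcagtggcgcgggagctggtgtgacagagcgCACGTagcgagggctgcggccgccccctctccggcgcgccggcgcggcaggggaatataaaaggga
P4ha2: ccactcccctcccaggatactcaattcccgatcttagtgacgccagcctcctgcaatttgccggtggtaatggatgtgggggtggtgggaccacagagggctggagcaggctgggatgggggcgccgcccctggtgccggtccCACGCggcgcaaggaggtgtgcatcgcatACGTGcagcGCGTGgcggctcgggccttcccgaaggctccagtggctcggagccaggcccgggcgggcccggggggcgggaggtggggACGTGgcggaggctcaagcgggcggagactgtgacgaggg
The *P4ha1* window held 3 matches (1 of ACGTG and 2 of GCGTG) and the *P4ha2* window 4 (2 of each). Whether hypoxia-inducible factors act on either gene in these cells was not tested. All 7 genes with an entry held at least 1 match in a window, as did 43.8% of 32851 promoters of the same length. That share is per promoter, whereas *P3h1* had 2 windows, and it was not matched for G and C content. The windows of the 7 genes held 53.3% to 70.3% G and C. The letters CAGAC, the SMAD-binding box, searched on both strands, were in 2 of the 7 genes (*Plod1* and *Serpinh1*) and in 49.6% of all promoters, and neither promoter of the pair held them. Both windows had 70.3% G and C. A match of letters is a description and not a binding site.

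*P3h1* encodes prolyl 3-hydroxylase 1, which modifies single prolines of type I collagen in a complex with CRTAP and cyclophilin B. It was low and the most variable of the 10, with 7.04, 0.89, and 5.49 CPM and 8.29, 41.9, and 3.90 CPM in the GFPiSMC segments and 2.85, 3.49, and 32.5 CPM and 6.83, 2.68, and 16.8 CPM in Tgfbr1/2iSMCKO. A single library of each genotype (descending replicate 2 of GFPiSMC and ascending/arch replicate 3 of Tgfbr1/2iSMCKO) held far more than the rest of its group. Its SD within groups was 1.65 on the log2 scale, above 99.3% of the 9210 well-expressed genes. *P3h1* itself was too low to be in that set, so this ranks it against more abundant genes only. The log2 fold change of 0.24 (SE 0.89, adjusted *p* = 0.95) had an interval of −1.78 to 2.26, so a change of up to several fold in either direction was not detectable in these libraries.

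*Serpinh1*, whose product HSP47 is specific to procollagen, was the most abundant of the 10 per kilobase of exon. It stood at 318, 211, and 327 CPM and 427, 557, and 277 CPM in the GFPiSMC segments. In Tgfbr1/2iSMCKO it was 134, 138, and 309 CPM and 95.4, 126, and 511 CPM. All 4 libraries of Tgfbr1/2iSMCKO animals 1 and 2 were below every GFPiSMC library, and the 2 libraries of animal 3 were within the GFPiSMC range. With all libraries the log2 fold change was −0.67 (SE 0.38, adjusted *p* = 0.44, interval −1.52 to 0.18) and did not pass the test.

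Among the genes that act on secreted procollagen, *Bmp1*, the C-proteinase, came nearest to a call. It ranged from 29.2 to 54.5 CPM in GFPiSMC and from 14.2 to 38.4 CPM in Tgfbr1/2iSMCKO, with the overlap from animal 3 (38.4 and 33.5 CPM). Its log2 fold change was −0.58 (SE 0.25, unadjusted *p* = 0.035, adjusted *p* = 0.25), and 3 of the 10 genes but also 16.1% of all genes had an unadjusted *p* under 0.05. After removal of each library's trend with G and C content, an alternative chosen after the data were seen, *Bmp1* passed the adjusted threshold at less than 2-fold (−0.64, adjusted *p* = 0.026), as did 3.18% of all genes in that fit. *Pcolce*, which encodes an enhancer of that proteinase, ranged from 7.47 to 25.6 CPM and from 6.62 to 24.0 CPM (on the log2 scale a change of −0.05, SE 0.32, adjusted *p* = 0.97, interval −0.78 to 0.67). *Loxl2*, a lysyl oxidase family member, ranged from 3.81 to 22.6 CPM and from 6.79 to 16.8 CPM (on the log2 scale a change of −0.20, SE 0.38, adjusted *p* = 0.89, interval −1.06 to 0.66). Both differences were smaller than the spread between replicates.

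On the scale of CPM per kilobase of exon, the order of the median levels in GFPiSMC was *Serpinh1* (131.9), *P4ha1* (45.4), *Plod2* (31.6), *P4ha2* (9.98), *Plod3* (7.91), *Bmp1* (3.99), *Plod1* (3.44), *Pcolce* (2.61), *Loxl2* (2.50), and *P3h1* (1.63). The range of *Serpinh1* (86.5 to 228) did not overlap that of *P4ha1* (26.1 to 49.4), and the range of *Plod2* (24.5 to 44.3) did not overlap that of *P4ha2* (4.99 to 21.1). All other neighbors in that order had overlapping ranges. In Tgfbr1/2iSMCKO the medians of *Serpinh1* (55.7), *P4ha1* (15.8), and *Plod2* (9.25) were still the 3 highest and the median of *P4ha2* was 6.65, but *Plod2* (5.92 to 10.5) now lay inside the range of *P4ha2* (3.03 to 17.0).

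The effect on *Plod2* and *P4ha1* was close in value in both segments. Within the ascending/arch, the log2 fold change was −1.92 (SE 0.23, adjusted *p* = 0.00097) for *Plod2* and −1.24 (SE 0.33, adjusted *p* = 0.10) for *P4ha1*. Within the descending segment the values were −1.84 (SE 0.23, adjusted *p* = 0.0013) and −1.28 (SE 0.33, adjusted *p* = 0.083). Thus 1 of the 10, *Plod2*, passed both thresholds in each segment, where 0.811% (ascending/arch) and 0.995% (descending) of all genes were called lower and 0.341% and 0.426% higher, and DESeq2 called *P4ha1* as well in each (adjusted *p* = 0.024 and 0.015). The log2 fold changes of the other 8 ran from −0.56 to 1.54 in the ascending/arch and from −1.04 to −0.03 in the descending segment, and none passed. No gene showed a difference of the genotype effect between segments in edgeR at an adjusted *p* under 0.05. At an unadjusted *p* under 0.05 there were 2.95% of all genes and 0 of these 10, and DESeq2 called 4 genes lower and 7 higher, 0 of them among the 10. For *Plod2* the difference of the effect was 0.09 with an interval of −0.64 to 0.82, and for *P4ha1* it was −0.04 with an interval of −1.09 to 1.01.

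None of the 10 differed between the segments of a genotype by edgeR or DESeq2. For the descending over the ascending/arch segment, 0.309% of all genes were called lower and 0.0627% higher in GFPiSMC, and 0.0896% and 0.0179% in Tgfbr1/2iSMCKO. At an unadjusted *p* under 0.05 there were again 0 of the 10, against 5.98% and 3.68% of all genes. In GFPiSMC 8 of the 10 had a positive log2 fold change, from 0.13 to 2.01, and *Plod2* (−0.33, SE 0.22) and *Loxl2* (−0.27, SE 0.55) were negative, with a median over all genes of −0.0098. In Tgfbr1/2iSMCKO the values ran from −0.56 to 0.65. The descending libraries of GFPiSMC came from fewer sorted cells (mean 12137) than its ascending/arch libraries (mean 16273). The part of cell number in these signs was not tested.

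**Figure D2:**
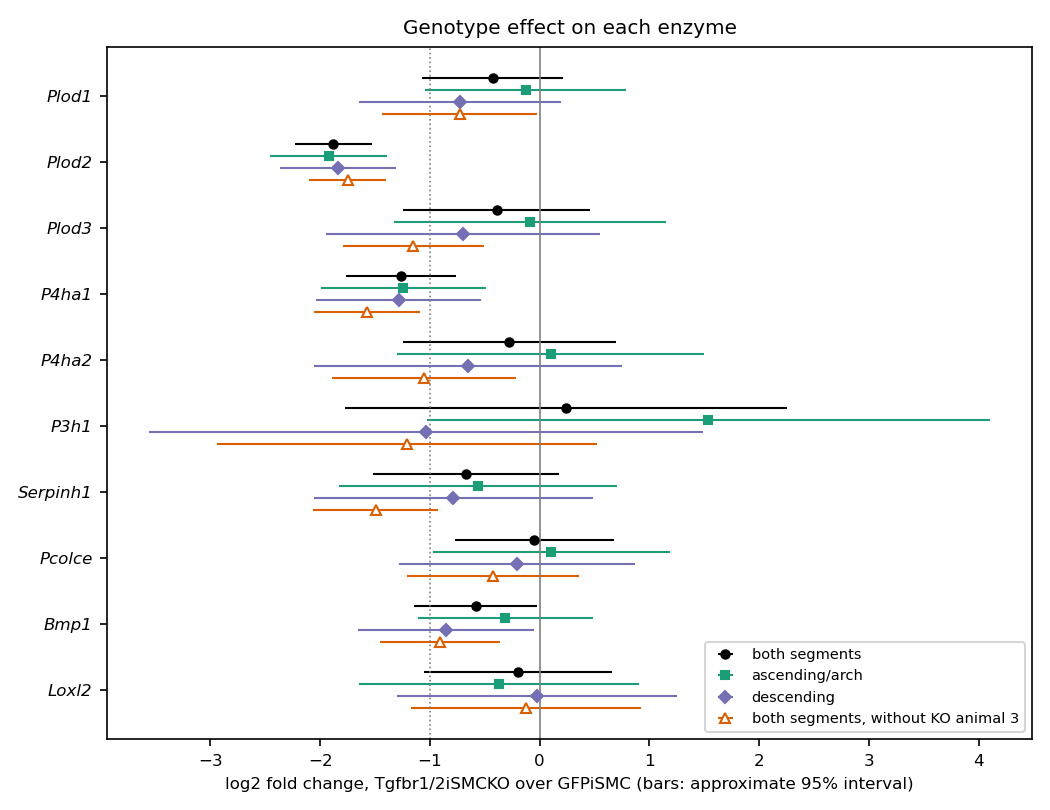
Log2 fold change of Tgfbr1/2iSMCKO over GFPiSMC for each of the 10 genes, over both segments (black), within each segment (green, violet), and over both segments without Tgfbr1/2iSMCKO animal 3 (open orange); bars are approximate 95% intervals, and the dotted line marks a 2-fold lower level. Only the intervals of *Plod2* and *P4ha1* lie below 0 in all 4 fits, and without animal 3 *Serpinh1* moves from −0.67 to −1.496 and *Plod3* from −0.39 to −1.15.

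A single animal decided how many of the 10 passed. Without Tgfbr1/2iSMCKO animal 3, 4 of the 10 were lower past both thresholds against 1.65% of all genes: *Plod2* (log2 fold change −1.75), *P4ha1* (−1.57), *Serpinh1* (−1.496, adjusted *p* = 0.0045), and *Plod3* (−1.15, adjusted *p* = 0.035). *Bmp1* was then at −0.91 (adjusted *p* = 0.051), *P4ha2* at −1.06 (adjusted *p* = 0.15), and *P3h1* at −1.20 (adjusted *p* = 0.51). Within segments the count without this animal was 2 in the ascending/arch (*Plod2* and *P4ha1*), against 0.637% of all genes, and 3 in the descending segment (with *Serpinh1* added), against 0.922%. Leaving out any other single animal kept the count over both segments at 2. When the 3 libraries that stood apart were all left out, an alternative chosen after the data were seen, *Serpinh1* passed (−1.34, adjusted *p* = 0.0037) beside *Plod2* and *P4ha1*. In that fit 354 of 22937 genes were called lower. The fit that leaves out animal 3 rests on 2 Tgfbr1/2iSMCKO animals.

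Most of the 10 were lower in libraries made from more sorted cells. Across the 12 libraries, which come from 6 animals, Spearman's rho of the level with the number of sorted cells was −0.92 for *P3h1*, −0.90 for *P4ha2*, −0.86 for *Plod1*, −0.85 for *Pcolce*, −0.78 for *Plod3*, −0.70 for *Serpinh1*, −0.69 for *Bmp1*, −0.53 for *P4ha1*, 0.54 for *Loxl2*, and 0.13 for *Plod2*. The first principal component of 9210 genes also moved with the cell number in the same libraries (rho −0.84). How many other genes had a rho of such size was not counted, so no trait particular to the 10 is shown. The component moved with the summed fibroblast markers too (rho 0.86), a sum that includes *Gsn*, and the rho without *Gsn* was not computed. The transcripts of *Plod2* (43.0%) and *P4ha1* (45.7%) had the lowest content of G and C of the 10, and the other 8 had 51.7% to 57.8%. With the log2 number of sorted cells as a covariate, also chosen after the data were seen, *Plod2* (−1.97, adjusted *p* = 9.4e-07) and *P4ha1* (−1.13, adjusted *p* = 0.00022) were again the 2 that were called. That fit called 458 of 22320 genes lower and 468 higher, against 366 and 230 in the fit without the covariate.

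**Figure D3:**
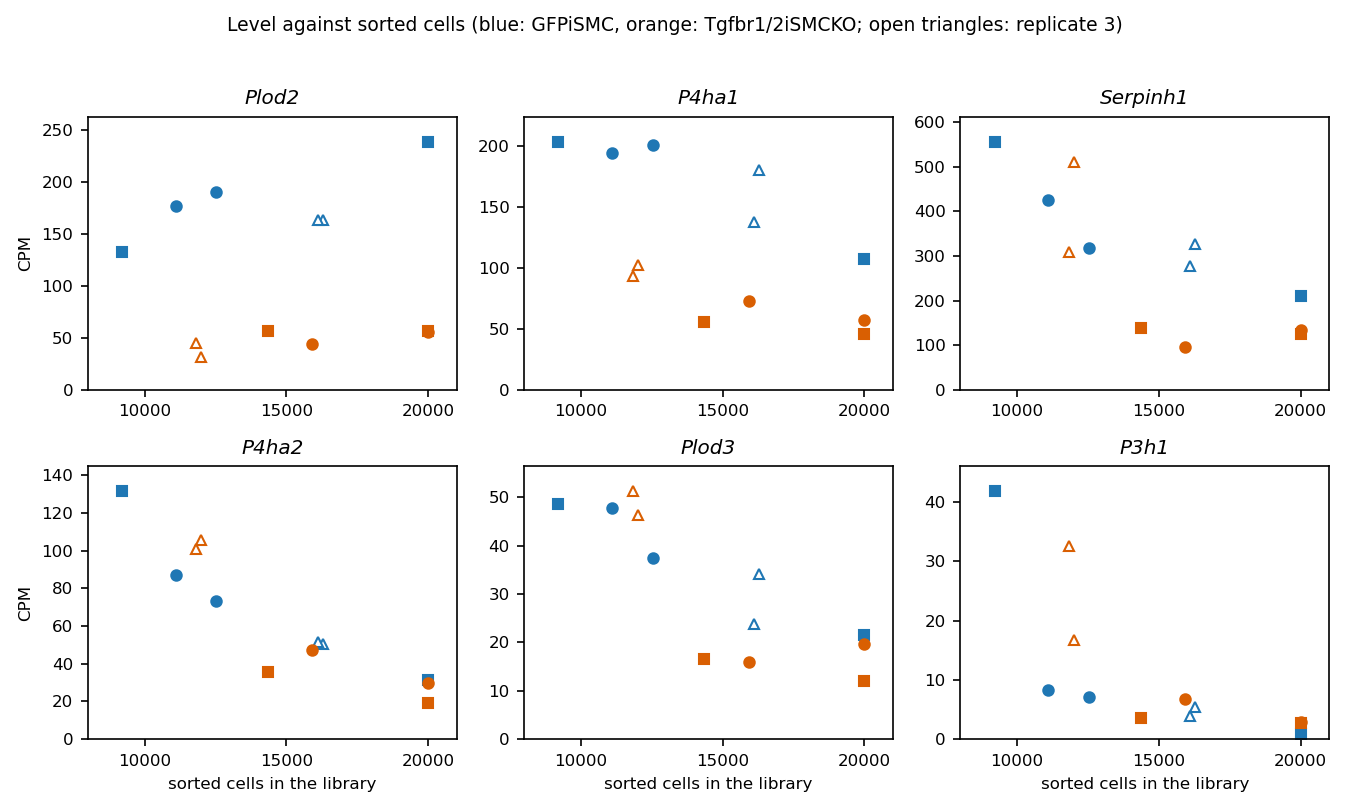
CPM of 6 of the genes against the number of sorted cells in each library, with GFPiSMC in blue and Tgfbr1/2iSMCKO in orange and open triangles for replicate 3. *P4ha2* and *P3h1* of both genotypes fall from the libraries with the fewest to those with the most cells.

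Among 30 further genes that act with these enzymes, 28 were tested and 7 were lower at an adjusted *p* under 0.05 (3.23% of all genes), 3 of them by more than 2-fold, and 0 were higher (1.8% of all genes); their median log2 fold change was −0.34. With library size as the only scaling 5 were lower, and without Tgfbr1/2iSMCKO animal 3 it was 9, with *P3h3* and *Loxl1* added. *Lox*, the main lysyl oxidase of the aortic wall, had the largest change of the list. It was at 763, 883, and 738 CPM and 557, 557, and 617 CPM in the GFPiSMC segments and at 97.5, 90.5, and 113 CPM and 90.8, 99.98, and 106 CPM in Tgfbr1/2iSMCKO, so that every library of the second genotype was far below the first (log2 fold change −2.77, SE 0.12, adjusted *p* = 1.0e-08). *P3h2*, the prolyl 3-hydroxylase of basement membrane collagen, ranged from 39.2 to 80.3 CPM and from 11.9 to 27.5 CPM (−1.71, SE 0.15, adjusted *p* = 1.2e-05). *Adamts2*, which removes the N-propeptide, ranged from 51.9 to 99.6 CPM and from 24.4 to 39.8 CPM (−1.17, SE 0.18, adjusted *p* = 0.0014). These 3 also passed when the segments of an animal were summed (adjusted *p* = 6.4e-05, 0.0031, and 0.037).

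The other 4 that passed fell by less than 2-fold. *Crtap* (−0.58, SE 0.14) and *Ppib* (−0.57, SE 0.09) encode the partners of prolyl 3-hydroxylase 1, *Sec24d* (−0.52, SE 0.11) a coat protein of the vesicles that carry procollagen, and *Fkbp14* (−0.46, SE 0.12) a peptidyl-prolyl isomerase that helps collagen fold. None of these 4 passed in that summed fit (adjusted *p* from 0.059 to 0.19). Of the cross-linking family, *Lox* was the one that passed, and *Loxl1* (−0.38), *Loxl3* (−0.30), and *Loxl4* (0.01) did not (adjusted *p* from 0.29 to 0.998).

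Of 38 genes for the collagen chains that these enzymes modify, 35 were tested. By edgeR 15 were lower at an adjusted *p* under 0.05 (3.23% of all genes), 9 of these by more than 2-fold (1.64% of all genes), 0 were higher (1.8% of all genes), 22 had an unadjusted *p* under 0.05, and the median log2 fold change was −0.62. DESeq2 gave 19 lower, 12 of them by more than 2-fold, and 1 higher, *Col23a1* (0.94, adjusted *p* = 0.025). By mean level the top 4 were *Col1a2* (−1.72, SE 0.08) and *Col3a1* (−2.32, SE 0.08), which form the fibrillar collagens I and III, *Col18a1* (−1.14, SE 0.10), and *Col4a1* (−1.15, SE 0.33, adjusted *p* = 0.066), which did not pass here but did by DESeq2 (adjusted *p* = 0.012) and with the segments of an animal summed (adjusted *p* = 0.036). Collagen chains took 0.581% to 0.710% of a library's counts in GFPiSMC and 0.261% to 0.286% in Tgfbr1/2iSMCKO, with no overlap. The 10 enzyme genes took 0.0674% to 0.112% and 0.0320% to 0.0935%, which overlapped through animal 3 (0.0735% and 0.0935%), and the other 4 Tgfbr1/2iSMCKO libraries were at 0.0320% to 0.0390%. The number of collagen counts for each count of the 10 enzymes was 5.54 to 10.003 in GFPiSMC and 2.84 to 8.15 in Tgfbr1/2iSMCKO, where the 2 lowest values were those of animal 3 (3.77 and 2.84).

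**Figure D4:**
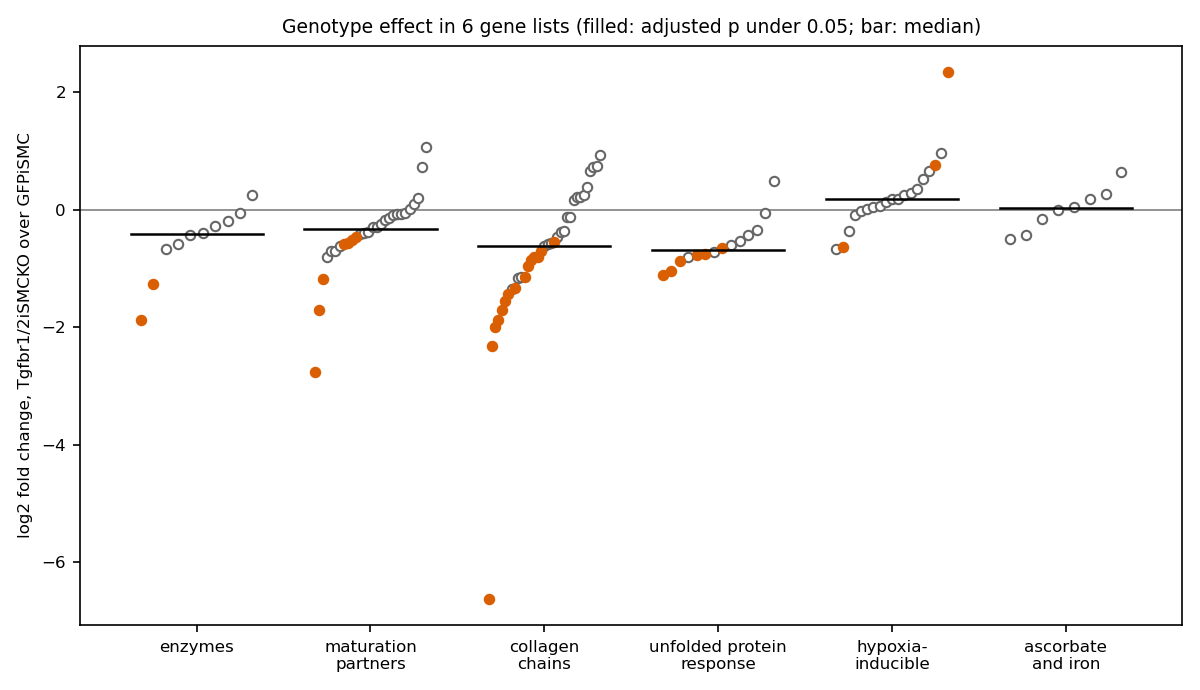
Log2 fold change of Tgfbr1/2iSMCKO over GFPiSMC for the 10 enzymes and 5 related gene lists, each point 1 gene, filled where the adjusted *p* is under 0.05, with bars at the list medians. The medians are −0.41 for the enzymes, −0.34 for the maturation partners, −0.62 for collagen chains, −0.69 for unfolded protein response genes, 0.17 for hypoxia-inducible genes, and 0.02 for ascorbate and iron supply.

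By root mean square difference of the centered log2 CPM over the 12 libraries, over 12694 genes that averaged 50 counts or more, the patterns most like *Plod2* were those of *Col5a2* (0.24), *Mgp* (0.24), and *Nox4* (0.26). Those most like *P4ha1* were *Col1a1* (0.20), *C1qtnf6* (0.21), and *Cspg4* (0.22). The genotype difference was left in these patterns, so genes this close were bound to be lower in Tgfbr1/2iSMCKO too. Their log2 fold changes ran from −2.17 to −0.99.

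Prolyl and lysyl hydroxylases need oxygen, iron, and ascorbate, and several are induced by hypoxia. Of 19 hypoxia-inducible genes tested, 1 fell, *Egln1* (−0.64, SE 0.12), an oxygen sensor, and 2 rose, the kinase *Pdk1* (0.75, SE 0.17) and the glycolytic regulator *Pfkfb3* (2.34, SE 0.51), against 3.23% of all genes lower and 1.8% higher. The log2 fold change was positive for 14 of the 19, and for 11982 of all 22320 genes tested. DESeq2 called 2 lower, with *Vegfa* added, and 4 higher, with *Bnip3* and *Ndrg1* added, whereas with the segments of an animal summed only *Pfkfb3* passed (adjusted *p* = 0.032), and *Egln1* (0.082) and *Pdk1* (0.13) did not. Without Tgfbr1/2iSMCKO animal 3 neither *Pdk1* (adjusted *p* = 0.074) nor *Pfkfb3* (adjusted *p* = 0.075) passed while *Bnip3* did (0.60, adjusted *p* = 0.044), and 9 of the 19 were positive. Of 8 genes for ascorbate and iron supply that were tested, 0 passed by edgeR with all libraries and TMM factors. By DESeq2 1 fell (the transporter *Slc39a14*, −0.50, adjusted *p* = 0.024), and by edgeR 2 had an unadjusted *p* under 0.05. With library size as the only scaling 1 was higher, and without Tgfbr1/2iSMCKO animal 3 *Fth1* was higher (0.35, adjusted *p* = 0.015). Of 14 genes of the unfolded protein response, 6 were lower (3.23% of all genes) and 0 higher (1.8%) by edgeR and by DESeq2, 9 had an unadjusted *p* under 0.05, and 13 had a negative log2 fold change (46.3% of all genes). The 6 were *Manf* (−1.11, SE 0.15) and *Atf4* (−1.05, SE 0.16), which alone passed the 2-fold threshold and the test on summed segments (adjusted *p* = 0.025 and 0.037), and *Xbp1* (−0.88, SE 0.24), *Calr* (−0.78, SE 0.19), *Hsp90b1* (−0.75, SE 0.17), and *Herpud1* (−0.66, SE 0.13). Without Tgfbr1/2iSMCKO animal 3, 8 of the 14 were lower and 6 of these by more than 2-fold, and with library size as the only scaling 4 were lower and 0 by more than 2-fold. *Manf*, *Calr*, and *Hsp90b1* encode proteins resident in the endoplasmic reticulum, *Atf4* and *Xbp1* transcription factors, and *Herpud1* a component of protein degradation there.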

How the data were processed

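Low-input libraries of 12 sorted SMC samples were compared. Per the labels and the methods of the study, reads were aligned with HISAT2 to GRCm38 (mm10) and gene counts were made with StringTie on GENCODE gene models. The authors deposited whole-number counts for 52636 genes, without normalization between libraries, and no read-level step was repeated. Counts of 2 (32279 pairs of gene and library) exceed counts of 1 (22574), so low counts are not a plain tally of reads. Strand was not stated for the counting.

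Counts were analyzed with edgeR 4.0.16 in R 4.3.3 (filterByExpr on the 4 groups, TMM factors, quasi-likelihood fit with segment and genotype, Benjamini-Hochberg adjustment over 22320 genes). Genes were called when the adjusted *p* was under 0.05 and the level differed by more than 2-fold. Effects within segments, their difference, and differences between segments came from a fit with 4 group means. Adjusted *p* values are from edgeR unless DESeq2 (1.42.0) is named. Each SE was obtained by dividing a log2 fold change by the root of its F statistic, and approximate 95% intervals use the residual degrees of freedom, 9 with segment and genotype and 8 with 4 group means. Libraries of one animal are not independent, so counts were also summed per animal. An exact permutation test of 3 animals against 3 cannot go below *p* = 0.1. Depth ran from 20467027 to 31392396 counts. Coordinates and exon lengths came from GENCODE M21, and figures were drawn with matplotlib 3.10.9.

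The 10 genes, the related lists, and the tests were chosen with earlier results of these data known. Named genes are the 10, list genes with an adjusted *p* under 0.05, the 4 collagens of highest mean level, the 3 nearest patterns, and the checked receptors and markers, and *P4hb*, *Loxl1*, *Loxl3*, *Loxl4*, *P3h3*, *Bnip3*, *Ndrg1*, *Vegfa*, *Slc39a14*, *Fth1*, *Col23a1*, *Vwf*, *Gm38391*, and *Znhit1* were added after values were seen. Steps were tested on simulated counts. Alternatives were DESeq2, no segment term, sums per animal, limma-voom (limma 3.58.1) with the animal as random effect, a replicate block, RLE factors or library size, other filters, each segment alone, each animal left out, and a test against a 2-fold change. Chosen after the data were seen were leaving out 3 libraries, sorted cells as a covariate, and removal of a trend with G and C content.

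Libraries of one genotype and number were taken as segments of one animal. The correlation of their residuals over 9210 genes was 0.187, −0.242, and 0.0240 in GFPiSMC and 0.0612, 0.377, and 0.661 in Tgfbr1/2iSMCKO. Equal numbers did not pair the genotypes (−0.527 to 0.216).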

Additional observations from a re-analysis of the deposited data

How the results depend on the processing

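The count of enzyme genes lower past both thresholds over both segments was 2, and it was 1 with counts summed per animal and 1 in the test against a 2-fold change, where *P4ha1* was lost. Leaving out single animals gave 2 to 4 over both segments, 1 to 2 in the ascending/arch, and 1 to 3 in the descending segment, the highest without Tgfbr1/2iSMCKO animal 3. DESeq2 gave 2 in the ascending/arch and 2 in the descending segment, against 1. *Plod2* was called under every alternative that was run (log2 fold change −2.02 to −1.75 over both segments). *P4ha1* kept its direction in all of them (−1.57 to −1.07 over both segments, −1.53 to −1.05 in the ascending/arch, and −1.62 to −1.03 in the descending segment). With the replicate number as a block, the count of 2 did not change, and equal numbers do not mark paired animals of the genotypes. The sign of *P3h1* (0.24) changed to −0.31 with this replicate block, to −0.048 with genotype alone, and to −0.44 without the 3 libraries that stood apart. *Pcolce* (−0.05) was 0.077 with library size only, which moved the median of all genes from 0.04 to 0.16, and 0.15 with sorted cells as a covariate. With single animals left out, *P3h1* ran from −1.20 to 0.80, *Pcolce* from −0.42 to 0.12, and *P4ha2* from −1.06 to 0.060. The causes were not tested. Of 366 further alternatives for single genes within segments, between segments, or for the difference of effects, 36 changed a sign and 0 a call (lowest adjusted *p* 0.081). The spread between 3 animals limits these comparisons, at a common biological coefficient of variation of 0.442.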
